A study of Homo sapiens with 9 samples.

Results

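The nuclear genes of mitochondrial complex I and of its assembly were followed in HEK293T lines that stably express WT, G245S or R273H p53. The members were taken by name: every protein-coding gene of the deposited table whose symbol begins with NDUF. There were 48 such genes among 20120 protein-coding genes and 78986 genes in all. By their known roles, 7 are nuclear core subunits, 30 are accessory subunits, 8 are assembly factors, and 3 carry the NDUF name without being part of complex I (NDUFA4, NDUFA4L2 and the readthrough gene NDUFC2-KCTD14).

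Complex I takes electrons from NADH, passes them along flavin and iron-sulfur clusters to ubiquinone, and pumps protons across the inner mitochondrial membrane. Its peripheral arm reaches into the matrix and carries the redox centres, and its membrane arm carries the pumps. The pumps and neighbouring membrane core subunits are encoded by the mitochondrial genome as the MT-ND genes, whereas the NDUF genes are transcribed in the nucleus, translated in the cytosol and imported, so the complex needs products of both genomes, joined in modules with the help of assembly factors.

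RNA-seq libraries were made from 3 biological replicates of each line, 9 in all. Every line was cultured in DMEM with serum and 1.5 µg/mL puromycin, and the WT p53 line served as the control. p53 or its G245S or R273H hotspot mutant was introduced by lentivirus into HEK293T, a human embryonic kidney line that holds its endogenous p53 functionally suppressed, and all groups carry that background (the labels name the line both HEK 293 and HEK293T). Each genotype is 1 selected line, with no cloning step described, so line and genotype cannot be told apart. The study linked mutant p53 to mitochondrial function, and the comparisons below ask whether the mRNA levels of complex I genes differed between the lines.

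The 8 libraries fitted held from 7325514 to 9667306 counts. WT replicate 3 held 1486315 counts and was left out of the fits for its depth, so the WT group has 2 libraries. It also stood apart in markers: EPCAM stood at 14.1 counts per 1000000 counts of a library (CPM) there against at most 3.42 in the other libraries, and KRT8 at 54.8 against at most 12.1. In the 8 libraries fitted, the epithelial markers EPCAM and CDH1 reached at most 3.42 and 1.41 CPM, KRT18 ranged from 58.8 to 68.8 CPM and VIM from 463 to 582. PTPRC, LYZ, PECAM1, VWF and ALB were each under 1 CPM in these 8 libraries, while COL1A1 ranged from 12.6 to 36.9 CPM. PHLDA3, a transcriptional target of p53, was measured at 28.2 and 30.97 CPM in WT and between 5.54 and 7.84 in the 6 mutant libraries, which matches the labels of the lines. In bulk RNA, fewer cells of a type and less RNA per cell cannot be told apart.

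Of the 48 genes, 47 were detected well enough to be tested in each comparison, and the smallest count of any of them in a fitted library was 106. Together the 48 genes took between 0.81% and 0.951% of all counts of a library. Levels are given below as CPM, scaled by the trimmed mean of M-values (TMM) over the 9 libraries. Between genes they are compared only as CPM per kilobase (kb) of the canonical transcript. Counting used exons and 3′ untranslated regions, and the position of reads along transcripts is not given in the sources used here. Across the 48 genes, longer transcripts did not have higher CPM (Spearman's rho = -0.50 between length and mean CPM, a description across genes of the same libraries), so the level per kb of a long transcript may be too low.

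Per kb, the subunits spanned from 4.94 to 1174 CPM per kb, with a median of 270.5 CPM per kb over 37 genes. Accessory subunits of the distal membrane arm had the highest median, at 471.8 CPM per kb, followed by those of the proximal membrane arm at 329.8, the accessory subunits of the peripheral arm at 167.3 and the nuclear core subunits at 116.5 CPM per kb. The assembly factors, which act on intermediates and leave the finished complex, had a median of 30.6 CPM per kb and ranged from 3.25 to 607. These ranges overlapped, and each role held both abundant and scarce transcripts. The most abundant members per kb were NDUFS5 (1174 CPM per kb) and NDUFB1 (725), small accessory subunits of the membrane arm, and NDUFB2 (660), another small subunit of the distal membrane arm. The least abundant were NDUFA4L2 (0.652 CPM per kb), NDUFAF5 (3.25), a hydroxylase that acts on NDUFS7, and NDUFS1 (4.94), the largest iron-sulfur subunit. The canonical transcript of NDUFS1 is 11660 bases long, which lowers its value per kb. Among assembly factors, NDUFAF8 stood highest at 607 CPM per kb, while NDUFAF5, the protein it partners, was the lowest.

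**Figure D1:**
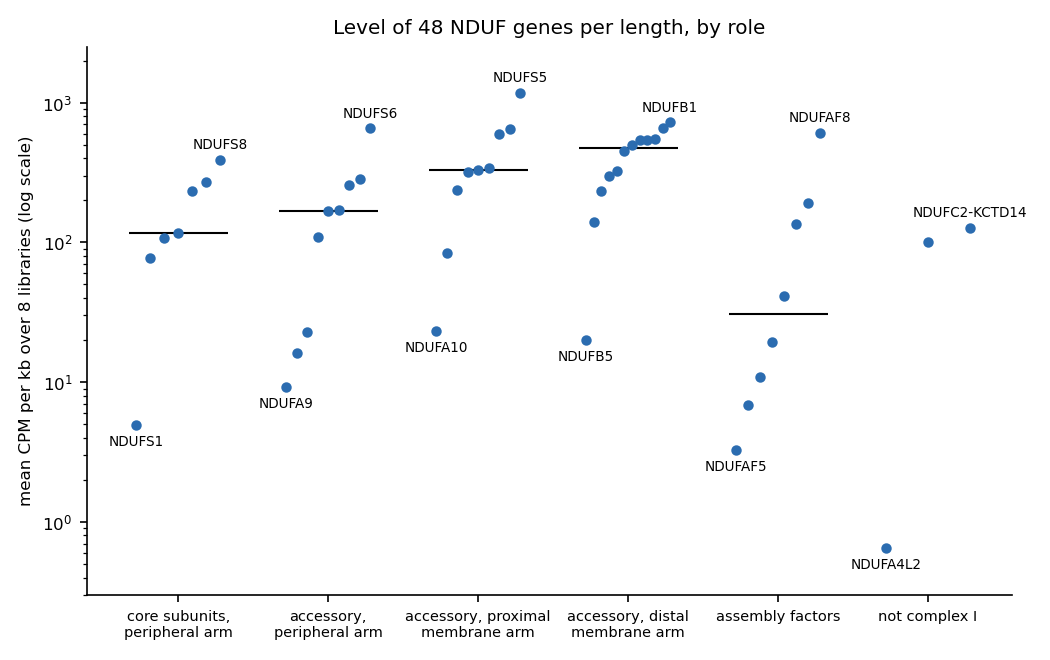
Mean level of the 48 NDUF genes over the 8 libraries fitted, in CPM per kb of canonical transcript on a log axis, by role. Each point is a gene, horizontal lines are medians of a role, and the lowest and highest gene of each role is named; medians run from 30.6 CPM per kb for assembly factors to 471.8 for distal membrane-arm subunits, and NDUFA4L2 lies apart at 0.652.

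Promoter sequences were available for 40 of the 48 genes as RefSeq windows on GRCh38.p14, from 250 bases before the transcription start to 50 after it. The letters of the core of the NRF1 site, GCATGCGC or its reverse complement GCGCATGC, are of interest because NRF1 (nuclear respiratory factor 1) is known to drive many respiratory-chain genes. They stood in 7 of 40 member windows (17.5%) and in 3.05% of all 35116 windows. The 35116 windows were not limited by gene type or level, so they are not a matched background for the members. The letters CCGGAAG of an ETS site stood in 15% of member windows and 10.3% of all windows, AAGATGGCG of a YY1 site in 12.5% and 1.75%, and the TATA box letters TATAAA in 7.5% and 11.5%, all searched on both strands. The ETS and YY1 letters can overlap at AAG, and the NRF1 letters can overlap their own reverse complement. The 4 members whose NRF1 letters lay wholly before the start are shown with 11 bases on each side, the motif in capitals, 5′ to 3′ on the gene's strand, because they span the peripheral and the membrane arm.
NDUFS7: ttccggtttccGCATGCGCtccgagccgct
NDUFS6: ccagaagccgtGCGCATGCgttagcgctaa
NDUFA6: tctgtagatgaGCATGCGCagcacccaccg
NDUFB4: aagagcacttcGCGCATGCgcatatcaccg

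In NDUFS7 (chr19:1383823-1383852, plus strand) the letters begin 73 bases before the start. In NDUFS6 (chr5:1801350-1801379, plus strand) they begin 46 bases before it. In NDUFA6 (chr22:42090920-42090949, minus strand) the letters begin 166 bases before the start, and in NDUFB4 (chr3:120596166-120596195, plus strand) they begin 159 bases before it. NDUFB4 also holds an overlapping match to the reverse complement of these letters, which begins 157 bases before the start. Only the first match of NDUFB4 is in capitals. NDUFA8 and NDUFAF5 held the letters across the start and NDUFAF4 held them after it. These are matches of letters in a window, and binding was not measured.

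None of the 47 genes tested differed between lines at an adjusted p under 0.05. Between G245S and WT, edgeR (quasi-likelihood F test, p-values adjusted by Benjamini and Hochberg's method over all genes tested) called 0 of 47 members, against 0.126% of the 15893 genes tested. At an unadjusted p under 0.05 it held 0 of 47 members against 6.66% of all genes. Between R273H and WT, 0 of 47 members were called, against 0.137% of 16022 genes, and 2 of 47 members had an unadjusted p under 0.05, against 6.11% of all genes. R273H and G245S differed in 0 members and in 0.0% of 15614 genes, and 0 of 47 members against 4.75% of all genes had an unadjusted p under 0.05 there. DESeq2 also called 0 members in each comparison, and held 0, 1 and 0 members at an unadjusted p under 0.05.

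The members' fold changes lay close to 0. In G245S the median log2 fold change against WT was -0.03 over the members and 0.0034 over all genes, with 18 members above 0 and 29 below. R273H against WT gave a median of 0.02, with 28 members above 0 and 19 below, beside 0.0023 over all genes. Between R273H and G245S the members' median was 0.03 and that of all genes -0.0048. A typical member had a standard error of 0.10 in either mutant against WT, beside a median of 0.14 over all genes tested. The 95% confidence intervals bound the size of change that these libraries leave possible. For all 47 members tested, the interval of G245S against WT lay within 1.5-fold in both directions, a range that held the interval of 65.6% of all genes. For R273H against WT this was so for 46 of the 47 members and 67.0% of genes, the exception being NDUFAF5. For R273H against G245S it was so for 47 members and 73.7% of genes. The shares over all genes include genes with larger standard errors, and genes of a like level were not counted apart.

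**Figure D2:**
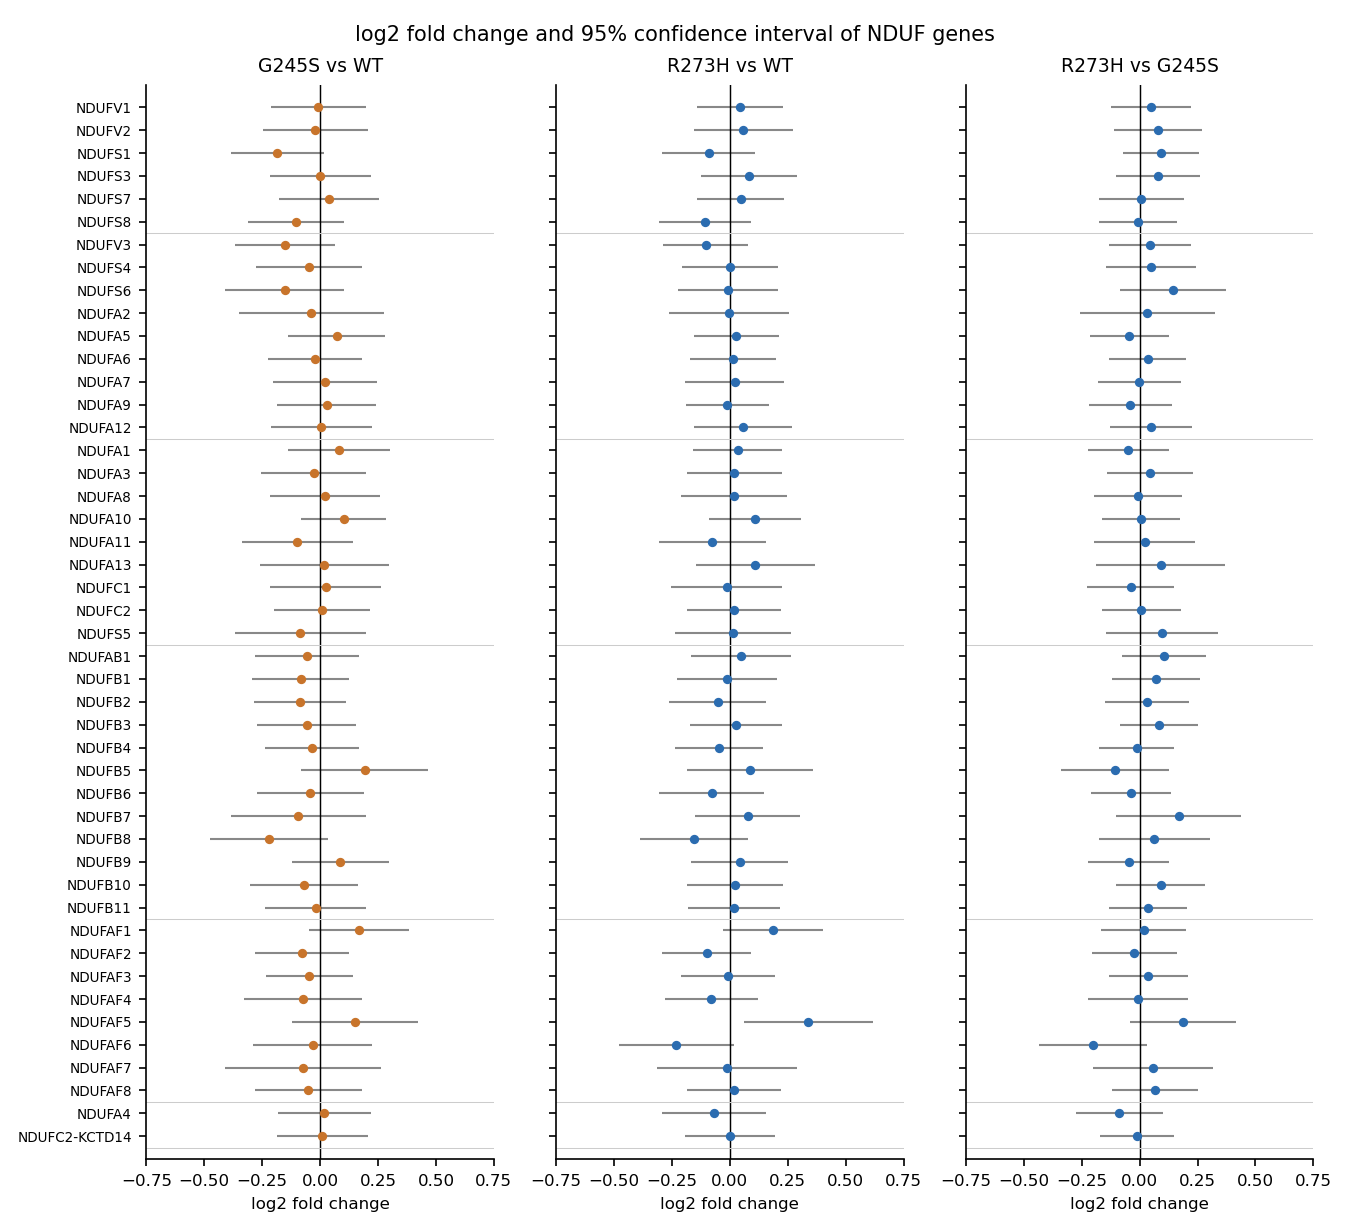
log2 fold changes (points) with 95% confidence intervals (lines) from edgeR for the NDUF genes described, for G245S against WT, R273H against WT and R273H against G245S. Grey rules separate roles, from core subunits at the top to genes outside complex I at the bottom; each interval shown crosses 0 except that of NDUFAF5 in R273H against WT, which did not pass adjustment.

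Groups that did not overlap were counted beside the same count over all genes. Every G245S library stood above both WT libraries for 3 of 47 members (NDUFA10, NDUFAF1 and NDUFAF5), against 11.3% of all genes, and below both for 1 member (NDUFS1), against 10.8%. Every R273H library stood above both WT libraries for 4 members, NDUFA10, NDUFAF1 and NDUFAF5 among them, against 10.2% of genes, and below both for 2 (NDUFV3 and NDUFAF6), against 10.5%. Between the mutants, 1 member (NDUFAF5) was higher in every R273H library, against 4.65% of genes, and 0 members were lower, against 4.36%. The counts against WT share the same WT libraries. NDUFA10 and NDUFV3 were named here after their values were seen.

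The 7 nuclear core subunits hold the flavin and the chain of iron-sulfur clusters. NDUFV1, which binds NADH and FMN, was measured at 179 and 182 CPM in WT, at 160, 188 and 188 in G245S and at 193, 179 and 185 in R273H, so that the lines overlapped. NDUFV2, an iron-sulfur subunit beside it, ranged from 58.1 to 73.0 CPM over the 8 libraries, with log2 fold changes of -0.02 in G245S and 0.06 in R273H. NDUFS3 (215 to 268 CPM) and NDUFS7 (161 to 199 CPM), both of the ubiquinone module, differed from WT by at most 0.08 on the log2 scale in either mutant. NDUFS8, an iron-sulfur subunit of the same module, stood at 320 and 289 CPM in WT, at 262, 296 and 289 in G245S and at 276, 273 and 299 in R273H. It differed from WT by -0.10 and -0.11 on the log2 scale, and the lines overlapped.

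NDUFS1, the largest iron-sulfur subunit, was measured at 66.2 and 57.4 CPM in WT and at 55.2, 52.96 and 54.3 in G245S, below both WT libraries by a small margin, and at 54.9, 60.8 and 58.6 in R273H, which overlapped WT. Its log2 fold change in G245S was -0.18 ± 0.09 (SE), with an edgeR adjusted p of 0.768, and WT replicate 3, at 56.9 CPM, lay below the lower of the WT libraries fitted.

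No accessory subunit of the peripheral arm had an unadjusted p under 0.05. NDUFS6, a zinc-binding subunit added late to the NADH module, was measured at 368 and 337 CPM in WT, at 266, 366 and 317 in G245S and at 325, 390 and 337 in R273H. The lowest value and one of the 3 highest came from G245S, and the log2 fold change was -0.15 in G245S and 0.14 between R273H and G245S. NDUFV3, a small subunit of the NADH module, stood at 146 and 133 CPM in WT, at 116, 119 and 140 in G245S and at 129, 128 and 133 in R273H. R273H thus lay just below both fitted WT libraries, by -0.10 on the log2 scale with an edgeR adjusted p of 0.970. WT replicate 3, at 128.6 CPM, lay within the R273H values. The other 7 members of this role (NDUFS4, NDUFA2, NDUFA5, NDUFA6, NDUFA7, NDUFA9 and NDUFA12) had log2 fold changes between -0.05 and 0.07 against WT in both mutants.

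In the membrane arm, NDUFB8 and NDUFB5 bounded the G245S comparison. NDUFB8, a single-span subunit of the distal arm, was measured at 255 and 228 CPM in WT, at 177, 242 and 201 in G245S and at 204, 250 and 195 in R273H. One library of each mutant lay between the WT libraries and the others below them. The log2 fold change of NDUFB8 was -0.22 ± 0.12 (SE) in G245S and -0.16 ± 0.11 in R273H, with edgeR adjusted p of 0.784 and 0.950. NDUFB5, also of the distal arm, stood at 88.7 and 67.5 CPM in WT, at 75.5, 95.7 and 96.2 in G245S and at 71.7, 95.4 and 82.5 in R273H. Its WT libraries lay farther apart than the means of the lines, and the log2 fold change was 0.19 ± 0.13 (SE) in G245S, with an edgeR adjusted p of 0.826, and -0.11 between R273H and G245S. NDUFB7, which has the cysteine-rich fold of proteins imported into the intermembrane space, was measured at 248 and 235 CPM in WT, at 180, 274 and 223 in G245S and at 236, 293 and 235 in R273H. G245S replicate 1 was the lowest of the 8 libraries, and the log2 difference between R273H and G245S was 0.17. NDUFA10, a nucleoside kinase-like subunit of the proximal arm, stood at 108 and 106 CPM in WT, at 115, 112 and 116 in G245S and at 111, 108 and 127 in R273H. All 6 mutant libraries were above both WT libraries, by log2 fold changes of 0.10 and 0.11, with edgeR adjusted p of 0.878 and 0.970. The remaining 8 proximal subunits had log2 fold changes between -0.10 and 0.11 against WT in either mutant, and the remaining 9 distal subunits between -0.09 and 0.09.

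Assembly factors held the largest differences of R273H. NDUFAF5 was measured at 16.8 and 14.3 CPM in WT, at 17.2, 17.0 and 17.4 in G245S and at 18.2, 21.6 and 19.4 in R273H, so that the 3 lines did not overlap in the libraries fitted. The log2 fold change in R273H was 0.34 ± 0.13 (SE), with an unadjusted p of 0.0199 and an adjusted p of 0.739 by edgeR, and it was 0.15 in G245S and 0.19 between the mutants. WT replicate 3 stood at 22.5 CPM, above every mutant library, and with it in the fit the R273H difference was 0.26. NDUFAF6, a factor of early assembly around the MT-ND1 product, stood at 21.1 and 20.8 CPM in WT, at 20.1, 22.6 and 18.7 in G245S and at 17.8, 19.1 and 16.8 in R273H. Its R273H libraries lay below both WT libraries, by a log2 fold change of -0.23 ± 0.12 (SE) with an edgeR adjusted p of 0.854, and overlapped those of G245S, from which they differed by -0.20 on the log2 scale.

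NDUFAF1, part of the complex that builds the membrane module around the MT-ND2 product, was measured at 27.1 and 26.7 CPM in WT (26.9 ± 0.28, SD, n = 2), at 30.7, 30.2 and 29.3 in G245S (30.04 ± 0.695, SD, n = 3) and at 29.7, 30.1 and 32.0 in R273H (30.6 ± 1.21, SD, n = 3). All 6 mutant libraries lay above both WT libraries and above WT replicate 3, at 24.6 CPM. The log2 fold changes were 0.17 ± 0.10 (SE) in G245S and 0.19 ± 0.10 in R273H, with edgeR adjusted p of 0.799 and 0.907. Over the 15433 genes tested in all 3 comparisons, 4.25% had all 6 mutant libraries above both WT libraries, and 3 of 47 members (6.38%) did, which is close to that background. With all 3 WT libraries this held for 2 members (NDUFA10 and NDUFAF1) and 2.34% of genes. All 6 mutant libraries lay below both fitted WT libraries for 0 members and 4.59% of genes, and below all 3 WT libraries for 0 members and 2.26%.

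**Figure D3:**
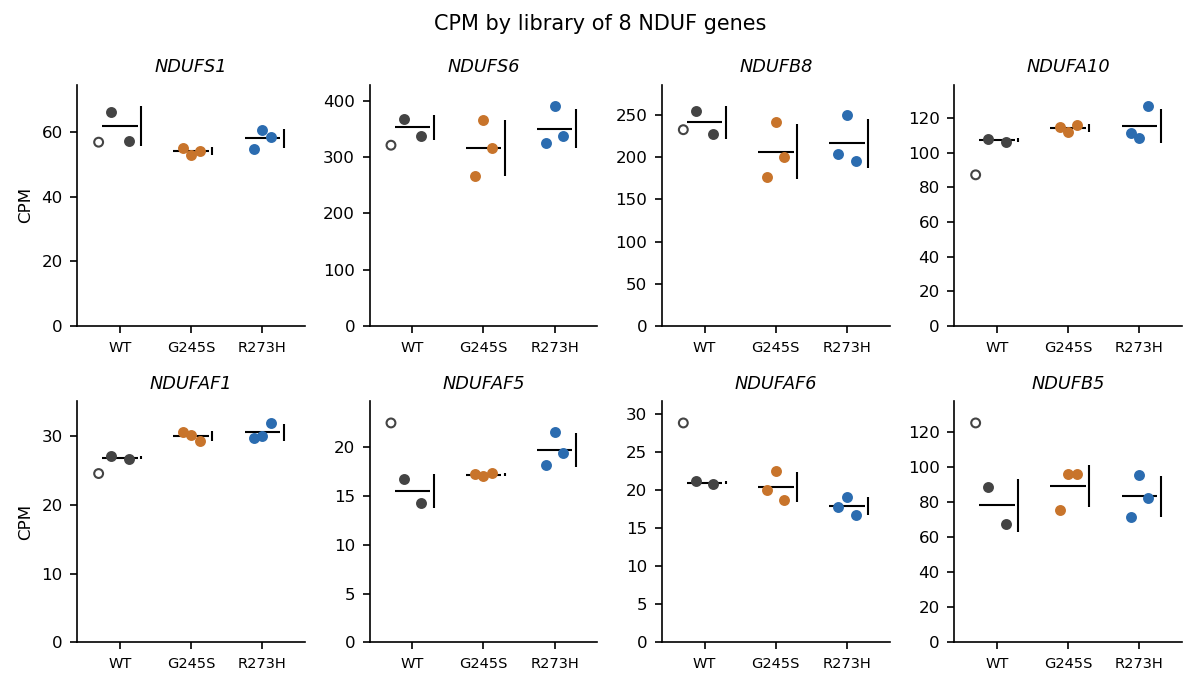
CPM by library of 8 NDUF genes in WT, G245S and R273H (linear axes from 0). Filled points are the libraries fitted, horizontal lines their means, vertical bars ± 1 SD, and open points WT replicate 3, which was left out; all 6 mutant libraries lie above both fitted WT libraries for NDUFA10, NDUFAF1 and NDUFAF5, and no difference passed adjustment.

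The other assembly factors overlapped between lines. NDUFAF2, which holds the place of its paralog NDUFA12 on late intermediates, ranged from 76.5 to 91.4 CPM, with log2 fold changes of -0.08 in G245S and -0.10 in R273H. NDUFAF3 (157 to 186 CPM) and NDUFAF4 (87.5 to 117 CPM), which work as partners on the ubiquinone module, had log2 fold changes between -0.08 and -0.0072 against WT. NDUFAF7, an arginine methyltransferase, ranged from 13.1 to 17.6 CPM, and its extremes were G245S replicate 3 and WT replicate 2. NDUFAF8 ranged from 305 to 373 CPM, with log2 fold changes of -0.05 and 0.02.

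Of 14 further assembly factors without the NDUF name, edgeR called 0 in any comparison. At an unadjusted p under 0.05 it held 1, 0 and 1 of the 14 in the 3 comparisons, beside 6.66%, 6.11% and 4.75% of all genes. The median against WT was 0.04 for G245S and 0.0030 for R273H on the log2 scale. CHCHD4, which oxidizes cysteines of proteins imported into the intermembrane space, had the smallest p among them. CHCHD4 stood at 62.4 and 58.9 CPM in WT, at 51.0, 53.1 and 53.2 in G245S and at 59.5, 58.8 and 60.5 in R273H. In the libraries fitted G245S thus lay below the other lines. Every G245S library stood below both WT libraries for 1 of the 14, against 10.8% of all genes, so CHCHD4 does not stand out from that share. The log2 fold change against WT was -0.20 ± 0.09 (SE), with an edgeR adjusted p of 0.725. WT replicate 3, at 50.6 CPM, lay below every G245S library.

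The 3 members outside complex I were no exception. NDUFA4, now assigned to cytochrome c oxidase, was measured at 220 and 194 CPM in WT, at 200, 218 and 207 in G245S and at 172, 206 and 213 in R273H. The lines overlapped, and the log2 fold change was 0.02 for G245S and -0.07 for R273H. NDUFC2-KCTD14 ranged from 63.7 to 71.5 CPM. It overlaps NDUFC2, so that the split of reads between them is uncertain, and their summed level ranged from 234.1 to 265.0 CPM over the 8 libraries. NDUFA4L2, a paralog of NDUFA4 that hypoxia is known to induce, had between 2 and 9 counts in every library and was too scarce to test. Its level of 0.230 to 1.04 CPM in the 8 libraries compares with a floor, set at 3 counts, of 0.306 to 0.41 CPM. Over 18 hypoxia-induced genes, the median log2 ratio to the mean of the 8 libraries was 0.39 in G245S replicate 3 and between -0.14 and 0.03 in the other fitted libraries. Among them, BNIP3 stood at 143 CPM there and between 60.6 and 89.4 in the other fitted libraries, and SLC2A1, a glucose transporter, at 96.9 against 44.9 to 58.0, whereas NDRG1 and BNIP3L were within the range of the other fitted libraries. NDUFA4L2 in that library was at 0.616 CPM. Of these 18 genes, 0 were called by edgeR in any comparison. At an unadjusted p under 0.05 edgeR held 0 in G245S against WT, 6 in R273H against WT and 5 in R273H against G245S. The shares over all genes were 6.66%, 6.11% and 4.75%. Each of the hypoxia-induced genes so held was lower in R273H.

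The members moved together between libraries of the same line. Each member's CPM was set against its mean over the 8 libraries on the log2 scale and the median taken over the 47 members. This median was 0.10 and -0.08 in the WT libraries, -0.14, 0.08 and -0.02 in G245S and -0.06, 0.05 and 0.04 in R273H. Every line thus held libraries above and below 0. G245S replicate 1 held the lowest value of 26 of the 47 members and WT replicate 2 that of 11, while WT replicate 1 held the highest value of 15, and G245S replicate 2 and R273H replicate 2 that of 10 each. The ratio of the highest to the lowest of the 8 libraries had a median of 1.24 over the members, from 1.122 to 1.63, and was under 1.5 for 43 of them. Among 8071 tested genes with a mean CPM anywhere within the members' range, the median ratio was 1.26. These genes were not matched to the members' levels.

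In each role the median was lowest, of the fitted libraries, in G245S replicate 1, while the library with the highest median differed between roles. In G245S replicate 1 the median stood at -0.15 for core subunits, -0.16 for accessory subunits of the peripheral arm, -0.11 and -0.13 for those of the proximal and distal membrane arm, and -0.10 for assembly factors. In G245S replicate 2 the same 5 medians lay between 0.07 and 0.14. Shorter and longer transcripts did likewise: the 24 members with canonical transcripts of at most 737 bases had medians of -0.15 and 0.07 in these libraries, and the 23 longer ones -0.11 and 0.08. Whether the preparation of these libraries played a part was not tested.

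**Figure D4:**
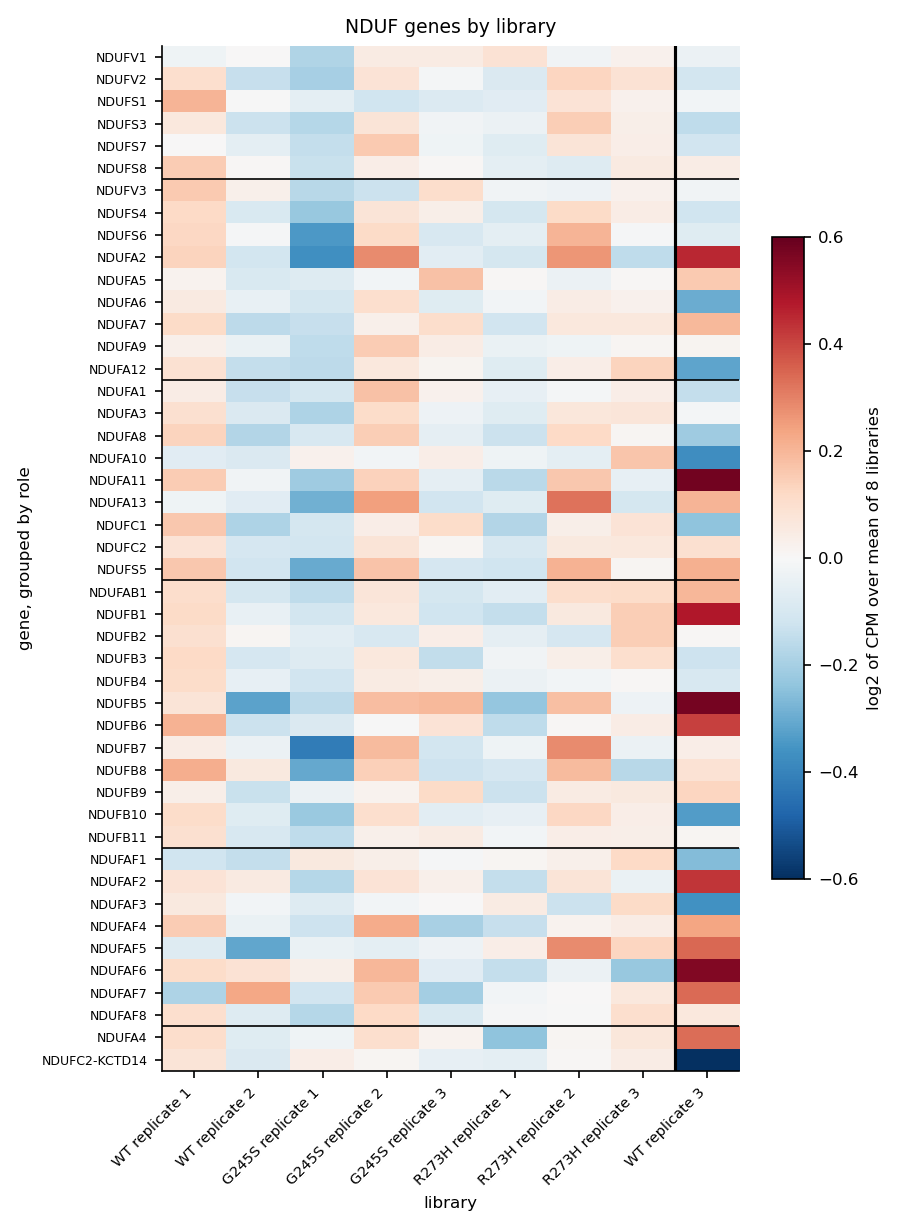
log2 of CPM over the mean of the 8 fitted libraries for the NDUF genes described (rows, grouped by role) in each library (columns), with WT replicate 3 at the right of the thick line; values beyond the colour scale take its end colour. The columns of G245S replicate 1 and WT replicate 2 are mostly below 0 and those of WT replicate 1 and G245S replicate 2 mostly above it.

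Nuclear subunits of the other respiratory complexes followed the same libraries. For 31 nuclear subunits of complexes II, III and V the median per library was 0.09 and -0.10 in WT, -0.11, 0.06 and -0.02 in G245S and -0.09, 0.06 and 0.05 in R273H, and it spanned 0.20 from lowest to highest, beside 0.23 for the complex I members. For 10 nuclear subunits of complex IV it spanned 0.36, from -0.18 in G245S replicate 1 to 0.19 in G245S replicate 2. By edgeR, 0 genes of either list were called in any comparison, and 0 had an unadjusted p under 0.05.

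The mitochondrially encoded subunits did not follow this order. The median of the 7 MT-ND genes was -0.36 and -0.08 in the WT libraries, 0.40, 0.18 and -0.20 in G245S and 0.19, -0.10 and -0.23 in R273H, a span of 0.76. G245S replicate 1, where the nuclear members were lowest, had the highest MT-ND median of the fitted libraries, and WT replicate 1, where the nuclear members were highest, had the lowest. MT-ND4 was measured at 4202 and 5128 CPM in WT, at 7068, 5938 and 5901 in G245S and at 6150, 5082 and 4705 in R273H. All 3 G245S libraries lay above both WT libraries, and R273H overlapped WT. Its log2 fold change was 0.44 ± 0.14 (SE) in G245S, with an edgeR adjusted p of 0.559, and -0.25 between R273H and G245S. MT-ND3 and MT-ND2 had log2 fold changes of 0.45 ± 0.15 and 0.45 ± 0.16 (SE) in G245S, with edgeR adjusted p of 0.605 and 0.641. WT replicate 3 stood at 6734 CPM of MT-ND4, higher than the other WT libraries. Its median over the MT-ND genes was 0.41, above that of every fitted library. With WT replicate 3 counted, the G245S medians lay within the range of the WT libraries.

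Over the 7 MT-ND genes, 0 were called in any comparison. By edgeR, 4 had an unadjusted p under 0.05 in G245S against WT, 1 in R273H against WT and 1 in R273H against G245S. Of all genes, 6.66%, 6.11% and 4.75% did. Over the MT-ND genes the log2 fold change had a median of 0.44 for G245S and 0.19 for R273H, above that of the nuclear members in both, with all 7 above 0. Between R273H and G245S the median was -0.21, with all 7 below 0. The 7 genes were read in the same libraries, so they are not independent observations. The interval lay within 1.5-fold for 2 of these 7 genes in G245S, against 47 of 47 nuclear members, and for 6 of 7 in R273H against WT, against 46 of 47, and 6 of 7 between the mutants, against 47 of 47.

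**Figure D5:**
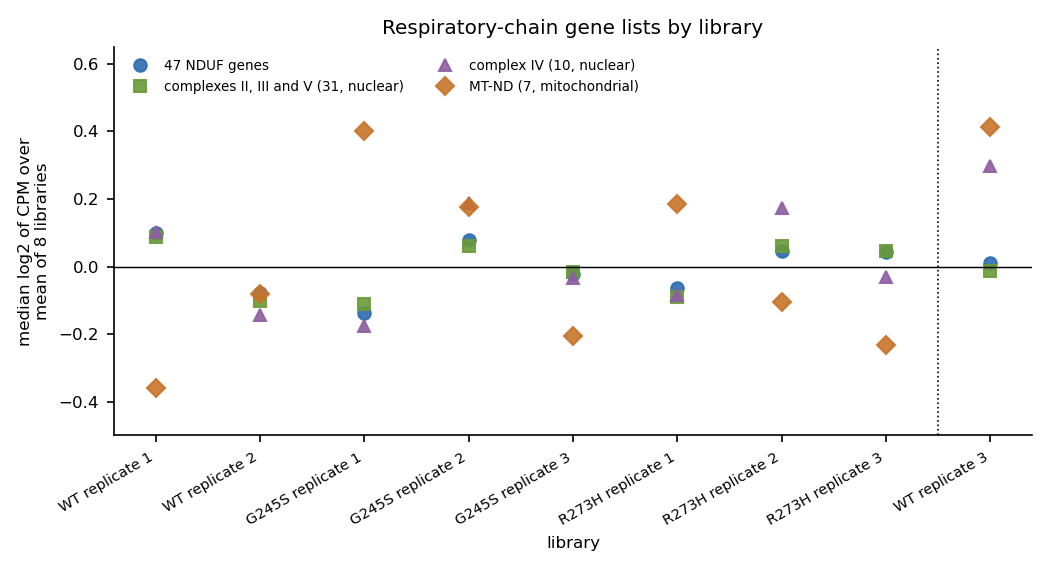
Median over genes of log2 CPM relative to the mean of the 8 fitted libraries, per library, for the 47 NDUF genes, 31 nuclear subunits of complexes II, III and V, 10 of complex IV and 7 MT-ND genes; WT replicate 3, right of the dotted line, was not fitted. The nuclear lists share their sign in each fitted library except R273H replicate 3, where complex IV stands at -0.03. Over the fitted libraries MT-ND runs from -0.36 in WT replicate 1 to 0.40 in G245S replicate 1, and it stands at 0.41 in WT replicate 3.

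Pseudogenes bear on the counts. The table lists 63 NDUF pseudogenes, of which 29 had a count, and these held 0.319% of the counts of all genes named NDUF. As multi-mapping reads were shared in fractions, 38 of the 48 members held a value that was not whole in at least 1 library.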

How the data were processed

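RNA-seq of 9 libraries (3 each of WT, G245S and R273H p53 lines) was analysed. Per the labels and the study's methods, the authors trimmed reads with fastp 0.24.0, aligned them with STAR 2.7.11 to GRCh38, removed duplicates by molecular identifier, and counted exons and 3′ untranslated regions with featureCounts (Subread 2.1.1), by strand and with fractions for multi-mapping reads. What they deposited, and what was used here, are expected counts per gene, with no scaling. Another 9 columns of CPM per sample were not used. Molecular identifiers were used, and floors (3 counts) cover counting error only.

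Counts were rounded. The WT library under 0.5 times the median total of the other 8 (a limit of 4095796 counts) was left out, as the study did with 1 WT replicate. Genes passing filterByExpr were scaled by TMM and compared with edgeR 4.0.16 (R 4.3.3, quasi-likelihood test, Benjamini-Hochberg adjustment over all genes tested, threshold 0.05). With so few libraries p-values rest on a spread shared across genes. Alternatives were DESeq2 1.42.0, other scalings, filters, fits and sets of libraries. Scripts used Python 3.11.15, numpy 2.4.6, pandas 2.3.3 and matplotlib 3.10.9, and the fit was tested on simulated counts.

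Transcript lengths are those of the canonical transcripts of GENCODE on GRCh38. The members, their roles and the gene lists were chosen with earlier results of these data known. Genes were named by rule: core subunits, assembly factors, members outside complex I, the 3 highest and 3 lowest changes per comparison, and the 3 most and 3 least abundant members. Others were named after their values were seen. The transgene's own mRNA and 1 member are not reported here, and that member enters only counts, medians and ranges over members.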

Additional observations from a re-analysis of the deposited data

Results flagged for a closer look

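The values of WT replicate 3, which the reported fits did not use, were set against the other 8 libraries with a 95% Poisson interval for its counts. For 7 members the whole interval lay above the range of the 8 libraries: NDUFA2 at 228.4 CPM, NDUFA11 at 553.2, NDUFB1 at 320.5, NDUFB5 at 125.1, NDUFB6 at 254.4, NDUFAF2 at 116.0 and NDUFA4 at 257.3 CPM. For 3 members it lay below: NDUFA10 at 87.16 CPM, NDUFAF3 at 133.5 and NDUFC2-KCTD14 at 37.96 CPM. The interval covers counting error and not the spread between replicates. The share of all genes that lay outside the range in this way was not counted, so these counts cannot be read as particular to the members. The same library held 14.06 CPM of EPCAM, 54.83 of KRT8 and 7.029 of LYZ, a gene of myeloid cells that was at 0.258 CPM or less in the other libraries. The part of these in the members' values was not tested.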

How the results depend on the processing

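No member passed the threshold under any of the 15 alternatives run for each comparison with WT or the 13 for R273H against G245S: of 2021 member values, 0 had an adjusted p under 0.05, and the smallest was 0.271. Of these values, 296 had another sign than reported, all on members that were not called. The members' median log2 fold change depended on single libraries in sign. It ran from -0.114 (without WT replicate 2) to 0.0634 (without WT replicate 1) in G245S against WT. In R273H against WT it ran from -0.0725 to 0.112 without the same libraries. Between the mutants it ran from -0.0204 (without G245S replicate 1) to 0.0844 (without G245S replicate 2). The spread of the members' median between replicates was 0.102 (SD). It comes from the same libraries, so smaller moves were nearly fixed in advance and do not show stability. With the replicate block the medians were -0.051, 6.38e-05 and 0.0429, and 0 members were called. The numbers were not taken to pair the libraries. Deviations of same-numbered libraries correlated between -0.148 and 0.28, and those of differently numbered libraries of different lines between -0.267 and 0.184. The highest, 0.28, was between G245S replicate 2 and R273H replicate 2. With 2 WT libraries fitted, their deviations mirror each other, so correlations with WT cannot show pairing. Between the mutants, same-numbered libraries correlated at 0.133, 0.28 and -0.0298. In both mutants the members' median was lowest in replicate 1 and highest in replicate 2. The MT-ND median fell from replicate 1 to replicate 3 in both. Whether the numbers mark a shared preparation was not tested. NDUFAF1 lay between 0.144 and 0.202 in G245S and between 0.153 and 0.226 in R273H over all settings. NDUFAF5 in R273H lay between 0.115 and 0.466, NDUFB8 in G245S between -0.345 and -0.124, and NDUFB5 in G245S between -0.203 and 0.41, which takes in both signs. Depth limits NDUFA4L2, and the group of 2 WT libraries limits the precision of both comparisons with WT.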
